A study of Mus musculus with 24 samples.

Results

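Complement and coagulation are 2 cascades of plasma proteases, and their genes were examined here in the livers of mice given a diet deficient in methionine and choline (MCD) and of mice given its control diet. The genes were the rows of the deposited count table that carry 1 of 46 symbols of these pathways, out of 56205 gene rows in all, and all 46 were found. They were split by the cell type that is the usual source of the product into 35 hepatocyte-made, 7 macrophage-made (C1qa, C1qb, C1qc, Cfp, C3ar1, C5ar1 and F13a1) and 4 with another source (Cfd, F3, Tfpi and Thbd). Both groups were C57BL/6J mice, males and females, without a transgene or deletion. The 12 control mice ate the matched control diet and the 12 MCD mice the deficient diet, each for 20 weeks, and each library is the poly(A) RNA of a whole liver. The series gives equal numbers of each sex per diet, but no label gives the sex, age, litter or sequencing batch of a library. The study's methods describe the diet as high in fat. Its results use another name for such a diet (CDAHFD), so the deficiency is stated here only as in the labels.

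Complement tags particles and damaged cells for removal. The classical route starts when C1q binds antibody or a surface, the lectin route when a mannose-binding lectin binds sugars, and the alternative route amplifies C3 cleavage. All of them meet at C3 and end in the terminal pore, while the small fragments C3a and C5a act on receptors of myeloid cells. Coagulation runs from tissue factor or the contact factors through factor X to thrombin, which turns fibrinogen into fibrin, and is held back by antithrombin, the protein C system and tissue factor pathway inhibitor. Hepatocytes secrete most of these plasma proteins. The C1q chains and the anaphylatoxin receptors are made largely by macrophages, and the A chain of factor XIII by macrophages and platelets.

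Total counts ran from 16793207 to 24915175 in control and from 16388650 to 24577848 in MCD libraries. Of the 46 genes, 45 passed the filter on low counts and were tested with edgeR's quasi-likelihood test among 14109 genes. Cfd was not. A gene was called when its false discovery rate (FDR, Benjamini-Hochberg over all 14109 genes) was 0.01 or less with an absolute log2 fold change above 0.5. Levels are CPM, counts scaled to library size, with the sizes adjusted by the trimmed mean of M values (TMM). These factors were 0.642 to 0.973 in control libraries and 1.07 to 1.26 in MCD libraries, without overlap. Under other scalings the median change of all tested genes moved from -0.10 to as much as 0.27 on the log2 scale, so directions of small changes depend on the scale. Hepatocyte markers were abundant in all libraries, as the label liver requires, with 7 markers summing to 74905 to 167423 CPM in control and 53307 to 78971 CPM in MCD. Of those markers 3 of 7 were called lower, Alb among them at -0.62.

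The 2 source classes moved apart. Of the 7 macrophage-made genes 6 were called higher and 0 lower, with a median log2 fold change of 1.68. Of these, C5ar1 and F13a1 reached the filter on low counts through the MCD libraries, not through the control libraries alone, so their calls depend on the diet in which they are high. Among the 5 macrophage-made genes that passed on the control libraries alone 4 were called higher, with a median of 1.51. Of the 35 hepatocyte-made genes 0 were called higher and 20 lower, with a median of -0.55. Over all tested genes 19.2% were called higher and 19.1% lower, with a median of -0.10. Of the 3 tested genes with another source, 1 (Thbd) was called higher. In 5 of the 7 macrophage-made genes every MCD library lay above every control library, which held for 9.5% of all tested genes. In 3 of the 35 hepatocyte-made genes (Mbl2, Masp2 and Serpinc1) every MCD library lay below every control library, which held for 4.88% of all tested genes. In bulk liver, fewer cells of a type and less RNA per cell cannot be told apart.

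**Figure D1:**
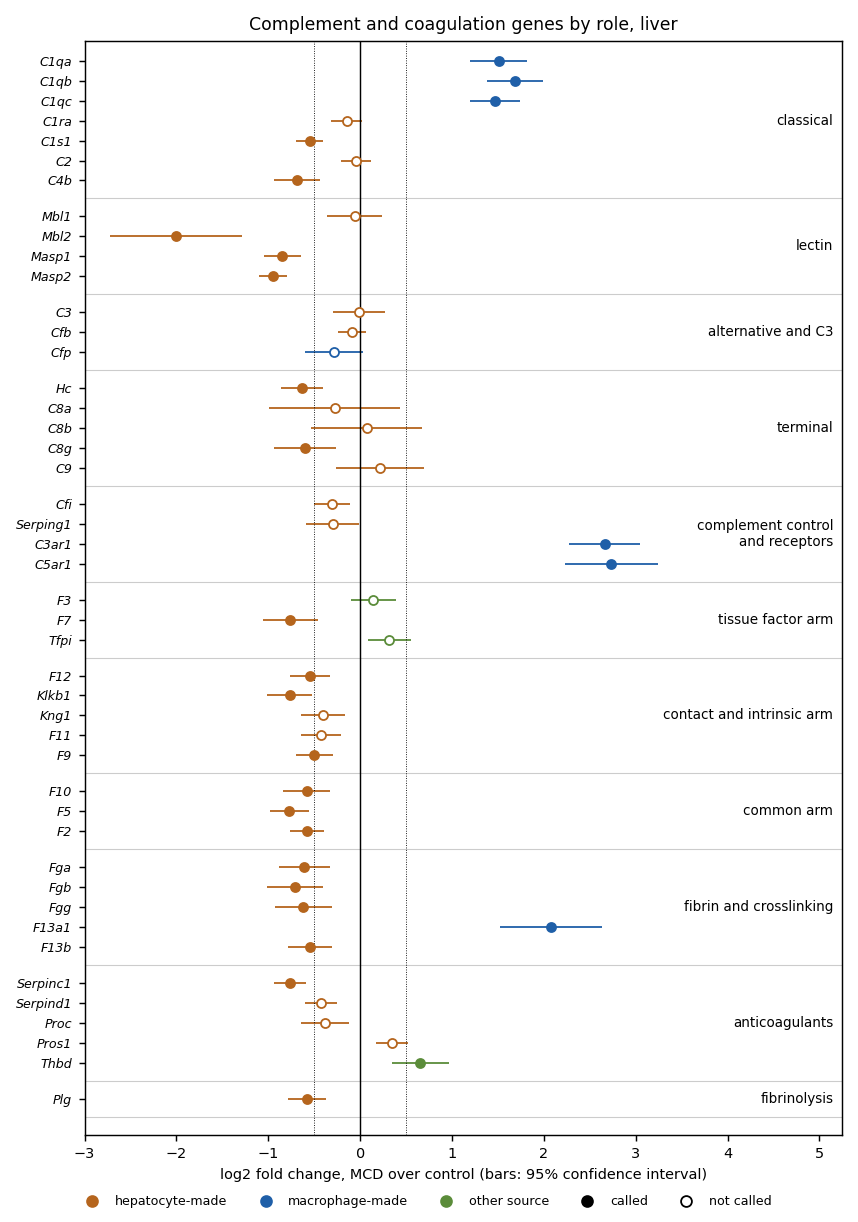
Log2 fold change of MCD over control (x axis, points with bars of the 95% confidence interval, 12 libraries per diet) for the 45 tested genes, grouped by role (rows) and coloured by source class, with filled points called and dotted lines at an absolute log2 value of 0.5. The blue macrophage-made points other than Cfp lie between 1.47 and 2.73, and the filled brown hepatocyte-made points lie between -2.01 and -0.50.

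The hepatocyte-made count depended on the scaling and the macrophage-made count did not. Hepatocyte-made genes called lower numbered 20 with TMM factors, 16 with relative log expression factors, 9 with upper-quartile factors and 3 with total counts alone. In the same order 19.1%, 15.7%, 12.1% and 6.01% of all tested genes were called lower, and 19.2%, 20.4%, 23.1% and 32.2% higher. The 3 that passed under every scaling were Mbl2, Masp1 and Masp2, all of the lectin route. With total counts alone 1 hepatocyte-made gene, Pros1, was called higher. Macrophage-made genes called higher numbered 6 under each of these scalings, including C5ar1 and F13a1, which passed the filter only through the MCD libraries. The smallest of these changes was 1.47 with TMM factors and the other scalings raised it, so they could hardly remove a call. The balance over all tested genes shifted likewise, since 50.2% of calls were higher with TMM factors and 84.3% with total counts alone. Relative to the median of all tested genes, the hepatocyte-made median was -0.45 with TMM factors and -0.44 with total counts, and the macrophage-made median was 1.78 and 1.79. As a share of raw counts, the hepatocyte-made genes made up 2.53% to 3.67% of a control library and 2.64% to 4.19% of an MCD library.

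**Figure D2:**
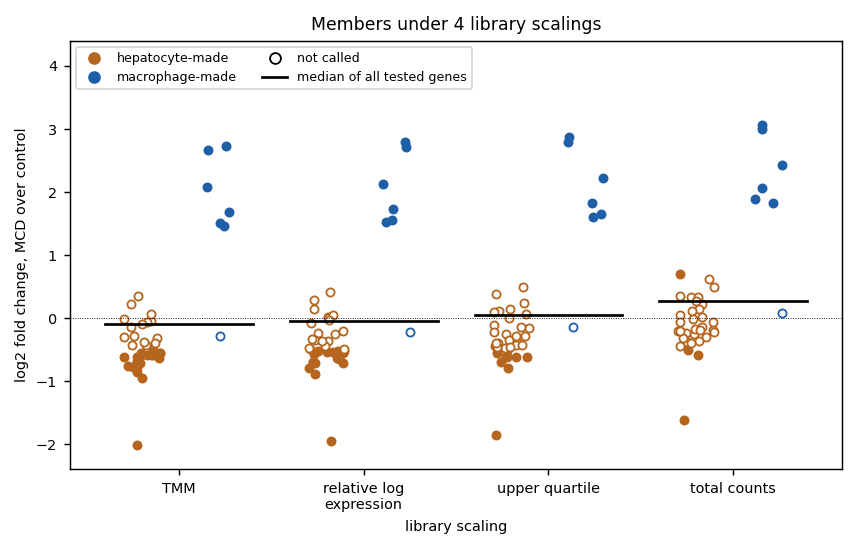
Log2 fold change of MCD over control (y axis) of the 35 hepatocyte-made and 7 macrophage-made genes under 4 library scalings (x axis), with filled points called, open points not called and a black line at the median of all 14109 tested genes. The brown points and the black line move up together from TMM to total counts (hepatocyte-made median from -0.55 to -0.17), and the number of filled brown points below 0 falls from 20 to 3.

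Summed over each class, the macrophage-made genes reached 111 to 360 CPM in control and 484 to 787 CPM in MCD libraries, with no overlap. The hepatocyte-made genes summed to 26024 to 50050 CPM (median 37010) in control and 22858 to 37883 CPM (median 26375) in MCD libraries, which overlapped. The highest control sum was that of replicate 12, with the lowest TMM factor (0.642) and a hepatocyte-made share of 3.21% of raw counts. Without that library the hepatocyte-made median log2 fold change was -0.42, and that of all tested genes was -0.04. Within a library, reads of hepatocyte-made genes outnumbered those of macrophage-made genes by 121 to 300 times in control and by 29.0 to 72.6 times in MCD livers. This quotient uses counts of the same library, so library scaling does not enter it, and its ranges did not overlap.

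The first component of the classical route, C1q, has 3 chains (C1qa, ENSMUSG00000036887, C1qb, ENSMUSG00000036905, and C1qc, ENSMUSG00000036896), and all of them rose. C1qa was at 37.1 to 143 CPM (median 66.1) in control and at 169 to 277 CPM (median 212) in MCD libraries. C1qb was at 30.01 to 98.2 CPM (median 47.4) in control and at 142 to 255 CPM (median 176) in MCD libraries. C1qc was at 24.9 to 77.6 CPM (median 50.6) in control and at 115 to 182 CPM (median 140) in MCD libraries. For each chain the lowest MCD liver was above the highest control liver. The log2 fold changes were 1.51 (SE 0.16, edgeR FDR 8.37e-09), 1.68 (SE 0.16, edgeR FDR 9.77e-10) and 1.47 (SE 0.14, edgeR FDR 1.37e-09). Per kilobase of the longest transcript the mean level in control livers was 70.5 RPKM (reads scaled to transcript length and library size) for C1qa, 50.9 for C1qb and 42.5 for C1qc, and in MCD livers 200.2, 164 and 117 RPKM in the same order.

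The C1q chain genes lie beside one another on chromosome 4, and the windows around the start sites of C1qb and C1qc are shown because these genes rose together. Each window runs from 250 bases before to 50 bases after the start that RefSeq gives in build GRCm38.p6, read 5′ to 3′ on the gene's strand. The C1qb window is chr4:136886151-136886450 on the minus strand and the C1qc window is chr4:136892865-136893164 on the minus strand. Capitals mark any of 5 motifs searched on both strands, each independently of the others, and every run of capitals shown here belongs to 1 motif.
C1qb: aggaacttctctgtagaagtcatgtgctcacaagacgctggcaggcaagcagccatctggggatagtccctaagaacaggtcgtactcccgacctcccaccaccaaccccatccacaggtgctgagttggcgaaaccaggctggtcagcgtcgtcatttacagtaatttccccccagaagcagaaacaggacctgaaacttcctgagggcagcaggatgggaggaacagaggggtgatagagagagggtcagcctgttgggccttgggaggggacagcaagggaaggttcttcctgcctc
C1qc: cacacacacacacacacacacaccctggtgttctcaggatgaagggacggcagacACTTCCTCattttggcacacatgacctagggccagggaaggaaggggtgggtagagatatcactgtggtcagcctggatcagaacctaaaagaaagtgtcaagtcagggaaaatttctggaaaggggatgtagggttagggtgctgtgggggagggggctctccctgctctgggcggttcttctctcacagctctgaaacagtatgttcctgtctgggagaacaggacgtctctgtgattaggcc
The capitals in C1qc are the reverse complement of GAGGAAGT, the core of a PU.1 site, where PU.1 is the myeloid transcription factor. Of 32851 RefSeq windows of this length, 3.20% hold it. Windows existed for 35 of the 46 genes, and among those it was found in C1qc and F13a1, both macrophage-made. C1qa had no window in the table.

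The hepatocyte-made proteases and substrates of the classical route moved less than C1q. C4b, the substrate of C1s that deposits on surfaces, had the largest change and the highest level of them (also per length), at 1437 to 3710 CPM (median 1885) in control and 1022 to 1668 CPM (median 1275) in MCD libraries. Its diets overlapped, with 9 of 12 MCD livers below the lowest control liver, and it fell by 0.68 on the log2 scale (SE 0.13, edgeR FDR 4.44e-05). C1s1, the protease that cleaves C4, also fell, with a log2 fold change of -0.55, which was called with TMM factors alone among the 4 scalings. C4b lost its call with total counts alone. C1ra, which activates C1s, and C2, the protease of the C3 convertase, were not called, at -0.15 and -0.05. C4b, C1ra and C1s1 have close paralogs (C4a, C1rb and C1s2), and reads shared between copies could be split in counting. Exons of C2 overlap those of Gm20547 on the same strand, and C2 and Cfb share that neighbour.

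C1q was also compared with macrophage markers inside each library, and the direction depended on the marker. The ratio of C1qa to Csf1r, the receptor that defines the macrophage lineage, was higher in MCD livers by 0.84 on the log2 scale (two-sided permutation test with 100000 resamples, p adjusted over 12 ratios 6e-05), with overlap. The ratio of C1qa to Adgre1, which encodes the macrophage antigen F4/80, was higher by 0.87 (permutation test, adjusted p = 0.000168), also with overlap. Between the chains, the C1qb to C1qa ratio was higher by 0.17 (permutation test, adjusted p = 0.00103), and the C1qc to C1qa ratio differed by -0.06, which was within the spread (permutation test, adjusted p = 0.378). Csf1r and Adgre1 had the smallest rises of the 7 pan-macrophage markers (0.67 and 0.65). Against the other 5, compared after the values were seen, the C1qa ratio was lower for Lyz2 (-2.23), Cd68 (-1.18), Tyrobp (-0.94) and Fcer1g (-0.70), with no overlap for Lyz2, Cd68 and Tyrobp (permutation test, p adjusted over the 7 markers 2.8e-05 for Fcer1g and 2.33e-05 for the others). The ratio of C1qa to Mpeg1 differed by 0.07, within the spread (permutation test, adjusted p = 0.719).

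Markers of several macrophage states also moved, but not all in the direction of these genes. All 7 pan-macrophage markers were called higher, summing to 203 to 450 CPM in control and 1309 to 2884 CPM in MCD livers. The 6 genes listed as markers of monocyte-derived macrophages summed to 45.9 to 203 CPM in control and 1049 to 2070 CPM in MCD livers. Most of the MCD sum was Spp1 and Gpnmb, with means of 593 and 568 CPM. Of these 6, Cx3cr1, Gpnmb and Trem2 passed the filter only through the MCD libraries, and the 3 that passed on both diets were called higher. Gpnmb had 0 counts in at least 1 control library. Of 6 markers of resident Kupffer cells 4 passed the filter on both diets and 3 of these were called lower, with sums over all 6 of 149 to 445 CPM in control and 81.3 to 297 CPM in MCD livers. Cd163, a Kupffer cell scavenger receptor that passed only through the control libraries, had a fitted log2 fold change of -6.14 and 0 counts in at least 1 MCD library. The share of these cell populations in the rise of the C1q chains was not tested.

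**Figure D3:**
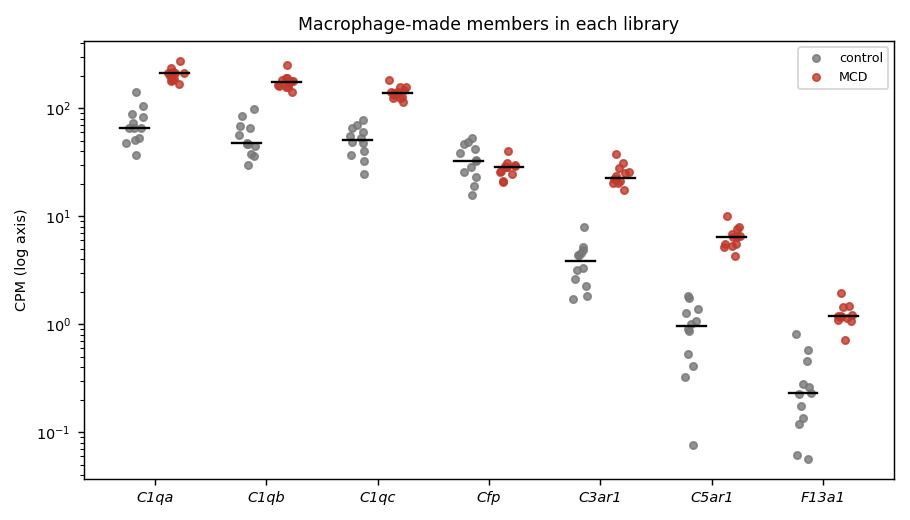
Level of each macrophage-made gene (x axis) in each of the 24 libraries (y axis, CPM on a log axis), grey for the 12 control and red for the 12 MCD libraries, with a black bar at the median. The diets are apart for C1qa, C1qb, C1qc, C3ar1 and C5ar1, touch for F13a1 and overlap for Cfp (medians 32.8 and 28.5 CPM).

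In the lectin route, Mbl2 (ENSMUSG00000024863), a mannose-binding lectin of plasma, had the largest fall of the 46 genes and, per length, the highest level of the route in control livers. Mbl2 was at 264 to 641 CPM (median 413) in control and at 18.1 to 212 CPM (median 93.1) in MCD libraries. Every MCD liver was below every control liver, and the MCD values fell into a low and a higher set. It fell by 2.01 on the log2 scale (SE 0.37, edgeR FDR 3.48e-05), a fitted level of 0.249 times that in control livers. Mbl1, the other mannose-binding lectin of the mouse, was at 59.8 to 236 CPM in control and 88.4 to 133 CPM in MCD livers and was not called (log2 fold change -0.06, SE 0.15). The Mbl1 to Mbl2 ratio inside a library was 5.64-fold higher in MCD livers without overlap (permutation test of log2 ratios, adjusted p = 4e-05), with log2 ratios of -2.86 to -1.07 in control and -0.91 to 2.79 in MCD livers.

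The proteases that act with these lectins fell too. Masp2, which cleaves C4 and C2, fell by 0.95 (SE 0.08, edgeR FDR 1.56e-10), from 195 to 321 CPM in control to 121 to 164 CPM in MCD livers, without overlap. Masp1, which activates Masp2, fell by 0.85 (SE 0.10, edgeR FDR 6.86e-08), with 11 of 12 MCD livers below every control liver. Exons of Masp2 overlap those of Tardbp on the opposite strand, and whether strand was used in counting is not given in the sources used here. The start windows of Mbl2 (chr19:30232678-30232977, plus strand) and Masp2 (chr4:148602294-148602593, plus strand) are shown because these genes had the largest falls.
Mbl2: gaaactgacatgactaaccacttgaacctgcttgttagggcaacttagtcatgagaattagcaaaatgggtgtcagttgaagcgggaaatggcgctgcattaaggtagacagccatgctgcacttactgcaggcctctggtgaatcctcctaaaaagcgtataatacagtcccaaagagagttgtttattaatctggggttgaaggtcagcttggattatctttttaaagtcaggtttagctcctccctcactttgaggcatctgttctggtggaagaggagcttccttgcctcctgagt
Masp2: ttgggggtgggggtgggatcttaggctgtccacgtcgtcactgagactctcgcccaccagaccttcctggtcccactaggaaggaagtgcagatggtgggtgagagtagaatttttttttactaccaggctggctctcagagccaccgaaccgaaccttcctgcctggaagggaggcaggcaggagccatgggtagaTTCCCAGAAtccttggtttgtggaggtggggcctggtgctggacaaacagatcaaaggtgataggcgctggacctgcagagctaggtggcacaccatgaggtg
No motif letters were found in the Mbl2 window. The capitals in Masp2 match TTCNNNGAA, the letters of a STAT5 site, where STAT5 carries growth hormone signals in hepatocytes. They are in 8.30% of all windows and in those of 7 of the 35 genes (C1ra, C8a, F9, Fga, Fgb, Masp2 and Pros1). Letters of an HNF1 site (GTTAATNAT, 0.801% of windows) were in F13b, Fga and Hc, those of a C/EBP site (TTNNGCAAT, 2.18% of windows) in C1s1 and C9, and those of an HNF4 site (CAAAGTCCA, 0.475% of windows) in none.

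At the junction of the routes, no gene was called. C3, the central component and per length the most abundant of these complement transcripts, was at 4179 to 10577 CPM (median 6452) in control and 5641 to 10050 CPM (median 6518) in MCD livers. The ranges overlapped almost fully, with a log2 fold change of -0.01 (SE 0.14). Cfb, the protease of the alternative convertase, was at 933 to 1397 CPM (median 1088) in control and 935 to 1206 CPM (median 1064) in MCD livers, with -0.09 (SE 0.08). Cfp, or properdin, which stabilises that convertase and is a macrophage product, was at 15.6 to 53.6 CPM (median 32.8) in control and 20.7 to 40.3 CPM (median 28.5) in MCD livers. It was the macrophage-made gene that did not pass, at -0.28 (SE 0.16, edgeR FDR 0.131). With upper-quartile factors or total counts alone the signs of C3 and Cfb were positive, and neither was called.

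Cfd, adipsin, cleaves factor B and is secreted mainly by adipocytes. It had 0 to 140 counts in control libraries (0 to 10.6 CPM, median 0.768), with 5 of 12 at 0. In MCD libraries it had 0 to 12 counts in 11 of 12, with 3 at 0, and 2293 counts (96.8 CPM) in MCD replicate 4. That library stood apart in the adipocyte markers as well. Adipoq had 239 counts there, Plin1 266, Retn 100 and Lep 5, against at most 3, 2, 2 and 0 counts in any other library. No fold change is given for Cfd, and its level in 1 liver carries the MCD mean.

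In the terminal pathway, whose proteins form the pore, 2 of 5 genes were called lower and 0 higher, beside 19.1% and 19.2% of all tested genes. Hc, which encodes C5, was at 493 to 1080 CPM (median 634) in control and at 325 to 540 CPM (median 435) in MCD livers. It fell by 0.63 (SE 0.12, edgeR FDR 3.61e-05), with 9 of 12 MCD livers below every control liver. C8g, a chain of C8, fell by 0.60 (SE 0.17, edgeR FDR 0.00334), although no MCD liver lay outside the control range. Both were called with TMM or relative log expression factors only. The other chains of C8 and C9, the pore-forming component, were not called, with log2 fold changes of -0.28 for C8a (SE 0.37), 0.07 for C8b (SE 0.31) and 0.22 for C9 (SE 0.24). The SEs of C8a and C8b were the largest of the 45 beside that of Mbl2 (0.37). The Hc to C9 ratio inside a library was lower in MCD livers by a log2 difference of -1.05, with no overlap (permutation test, adjusted p = 4e-05). In control livers this log2 ratio was 0.90 to 1.31 at the low and 1.32 to 3.04 at the high end of the sex-linked score defined below. In MCD livers it was 0.51 to 0.84, so the size of the difference varied with that score, which was not tested.

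Among regulators and receptors, the receptors rose most of all the genes. C3ar1 (ENSMUSG00000040552), the receptor of C3a, was at 1.71 to 8.03 CPM (median 3.84) in control and 17.4 to 37.8 CPM (median 22.9) in MCD livers. C5ar1 (ENSMUSG00000049130), the receptor of C5a, was at 0.0757 to 1.84 CPM (median 0.958) in control and 4.25 to 10.1 CPM (median 6.46) in MCD livers. Neither receptor overlapped between diets. The log2 fold changes were 2.66 (SE 0.20, edgeR FDR 1.98e-11) and 2.73 (SE 0.26, edgeR FDR 1.09e-09), and the ratio of the receptors inside a library differed by -0.24, within the spread (permutation test, adjusted p = 0.456). C5ar1 had 1 to 41 counts per control library, so its fold rests on few control reads, and without the filter it was 2.76 (edgeR FDR 6.76e-10). The sum of 5 neutrophil markers ran from 0.649 to 3.71 CPM in control and from 3.39 to 23.6 CPM in MCD livers. S100a8 and S100a9 passed the filter only through the MCD libraries, Ly6g had 0 counts in all control libraries, and their part in the rise of C5ar1 was not tested.

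The soluble regulators were not called. Serping1, the C1 inhibitor, which also blocks the contact proteases, was at 578 to 1914 CPM (median 767) in control and 595 to 906 CPM (median 703) in MCD livers, with a log2 fold change of -0.30 (SE 0.15). Cfi, the protease that inactivates C3b and C4b, was at 523 to 859 CPM (median 657) in control and 391 to 716 CPM (median 536) in MCD livers. Its change of -0.31 (SE 0.10, edgeR FDR 0.0094) passed the FDR but not the fold limit.

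Coagulation starts at tissue factor. F3, the membrane receptor that starts clotting, was at 5.195 to 9.48 CPM (median 6.68) in control and 5.42 to 12.4 CPM (median 7.40) in MCD livers and was not called (log2 fold change 0.14, SE 0.12). Tfpi, its inhibitor, was at 4.23 to 9.09 CPM (median 6.00) in control and 6.04 to 9.83 CPM (median 7.63) in MCD livers and was not called either (0.32, SE 0.12, edgeR FDR 0.0228). With total counts alone both were called higher. F7, the hepatocyte-made protease that tissue factor binds, was at 49.6 to 190 CPM (median 110) in control and 54.7 to 79.4 CPM (median 61.6) in MCD livers. It fell by 0.76 (SE 0.15, edgeR FDR 0.000109), with every MCD liver inside the control range, and was not called with total counts alone.

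In the contact and intrinsic arm 3 of 5 genes were called lower with TMM factors, beside 19.1% of all tested genes. With relative log expression or upper-quartile factors 1 (Klkb1) was called lower, and 0 with total counts alone. A count of 1 in 5 is close to the share of all tested genes called lower with relative log expression or upper-quartile factors (15.7% and 12.1%). Klkb1, plasma prekallikrein, had the largest change, from 102 to 249 CPM (median 143) in control to 57.8 to 112 CPM (median 89.8) in MCD livers. It fell by 0.77 (SE 0.12, edgeR FDR 6.61e-06), with 10 of 12 MCD livers below every control liver. Exons of Klkb1 overlap those of Gm45753 on the same strand. Kng1, the kininogen and per length the most abundant gene of the arm, was at 1547 to 3472 CPM (median 2174) in control and 1296 to 2352 CPM (median 1672) in MCD livers and was not called (-0.40, SE 0.12). F12, the contact factor, was at -0.55, and F11 was not called, at -0.43. F9, the factor missing in haemophilia B, was at -0.50 and just inside the fold limit, and it lost its call in 17 of the 24 fits that left out 1 library.

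The common arm was called lower in 3 of 3 genes with TMM or relative log expression factors, in 1 (F5) with upper-quartile factors and in 0 with total counts alone, where 19.1%, 15.7%, 12.1% and 6.01% of all tested genes were called lower. F5, the cofactor of factor Xa, fell by 0.77 (SE 0.11, edgeR FDR 6.51e-07), from 229 to 564 CPM (median 487) in control to 209 to 330 CPM (median 272) in MCD livers. The overlap came from control replicate 12, which was at 229 CPM while the other control livers were at 430 CPM or more. F2, prothrombin, per length the most abundant of the arm, was at 1723 to 3269 CPM (median 2156) in control and 1213 to 1739 CPM (median 1490) in MCD livers. F2 and F10, the protease that activates it, both had log2 fold changes of -0.58.

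The fibrinogen chains were called lower together. Fgb, the beta chain, had the largest change and the highest CPM, though per length Fgg was higher (1624 and 889.96 RPKM in control livers), with a range from 1904 to 4989 CPM (median 3389) in control to 1562 to 3661 CPM (median 1872) in MCD livers. It fell by 0.71 (SE 0.16, edgeR FDR 0.000295), with 6 of 12 MCD livers below every control liver. Fga and Fgg, the alpha and gamma chains, were at -0.61 and -0.62. Inside a library the chain ratios differed between diets by no more than their spread, Fga to Fgg by -0.02 (permutation test, adjusted p = 0.625) and Fgb to Fgg by -0.10 (permutation test, adjusted p = 0.115). With total counts alone none of the chains was called, and with upper-quartile factors only Fgb was.

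Factor XIII, which crosslinks fibrin, has an A chain of macrophages and platelets and a B chain of hepatocytes, and these moved in opposite directions. F13a1 (ENSMUSG00000039109), the A chain, was at 0.0566 to 0.806 CPM (median 0.228) in control and 0.715 to 1.94 CPM (median 1.18) in MCD livers. In MCD livers 11 of 12 were above every control liver. Its fitted log2 fold change was 2.08 (SE 0.29, edgeR FDR 5.83e-07), on 1 to 18 counts per control library. It passed the filter only through the MCD libraries, and without the filter the value was 2.12 (edgeR FDR 1.35e-06). F13b, the B chain, was at 83.1 to 203 CPM in control and 73.2 to 135 CPM in MCD livers and was called lower with TMM factors alone among the 4 scalings (log2 fold change -0.55). The F13a1 to F13b ratio inside a library, which needs no filter, was higher by 2.83 on the log2 scale in MCD livers, with no overlap (permutation test, adjusted p = 4e-05, from the smallest p of 1e-05 that the resamples can give). Among 5 platelet markers Pf4, which passed only through the MCD libraries, had a log2 fold change of 2.17, Itga2b was not called (-0.41) and 3 were too low to test, and their part in the rise of F13a1 was not tested. Exons of F13a1 overlap those of Gm30489 on the opposite strand.

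Of the anticoagulants, Serpinc1 fell and Thbd rose. Serpinc1, antithrombin, was at 1730 to 2972 CPM (median 2209) in control and 1094 to 1529 CPM (median 1302) in MCD livers, without overlap. It fell by 0.76 (SE 0.09, edgeR FDR 5.71e-08), and lost the call with total counts alone. The F2 to Serpinc1 ratio, prothrombin over its chief inhibitor, was higher in MCD livers by 0.19 (permutation test, adjusted p = 0.00103), with overlap. Thbd, thrombomodulin, the endothelial receptor that turns thrombin toward protein C, was at 1.36 to 4.48 CPM (median 3.30) in control and 3.32 to 7.03 CPM (median 5.10) in MCD livers. It rose by 0.65 (SE 0.16, edgeR FDR 0.000815), with 8 of 12 MCD livers above every control liver, while 5 of 6 endothelial markers were called lower (sums of 190 to 283 CPM in control and 105 to 175 CPM in MCD livers), whose part was not tested. Serpind1 (heparin cofactor II), Proc (protein C) and Pros1 (its cofactor protein S) were not called, at -0.43, -0.38 and 0.35. Plg, plasminogen, the zymogen that dissolves fibrin, was at 1597 to 3208 CPM (median 2518) in control and 1380 to 1965 CPM (median 1674) in MCD livers, and fell by 0.58 (SE 0.11, edgeR FDR 3.26e-05), which was called with TMM or relative log expression factors only.

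**Figure D4:**
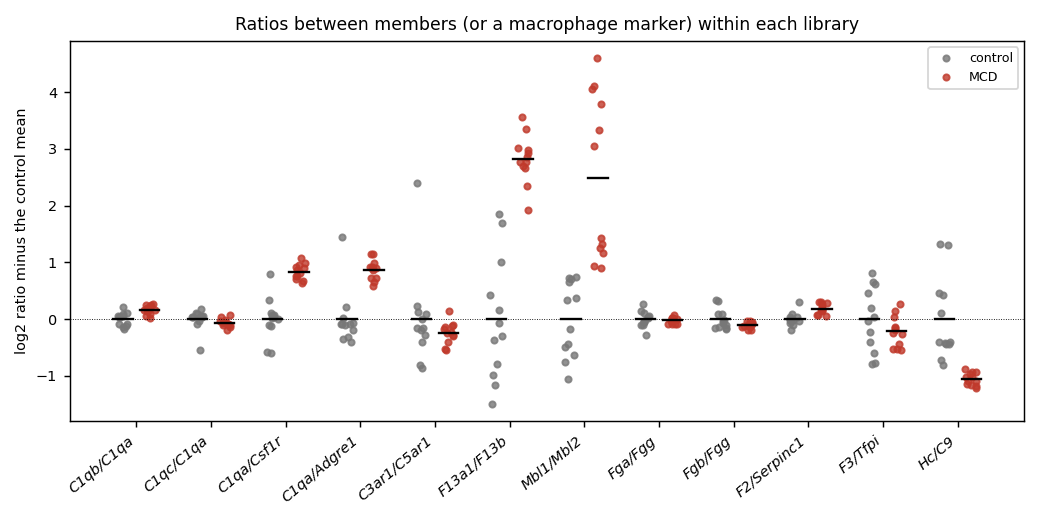
Log2 ratio of 2 genes in the same library minus the control mean of that ratio (y axis) for 12 pairs (x axis), grey for the 12 control and red for the 12 MCD libraries, with a black bar at the mean. F13a1/F13b and Mbl1/Mbl2 are higher and Hc/C9 is lower in MCD livers without overlap (7.09-fold, 5.64-fold and 0.483-fold of control), while the fibrinogen chain ratios stay near 0.

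Of the 12 ratios, 7 differed between diets at an adjusted p below 0.05. A ratio of this kind does not depend on library scaling. The F3 to Tfpi ratio differed by -0.22, within the spread (permutation test, adjusted p = 0.321).

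The genes also varied within a diet. In 30 of the 35 hepatocyte-made genes the coefficient of variation was larger among control than among MCD livers, with medians of 23.5% and 13.4%. Over all tested genes the same held for 90.0%, so the hepatocyte-made genes did not stand out. Mbl2 went the other way, at 27.6% in control and 74.3% in MCD livers. In control livers the most variable hepatocyte-made genes were C8a (80.2%), C8b (73.8%) and C9 (58.9%), with C8g at 46.3%. Hc, the other terminal gene, was at 23.1%, near the median.

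Both sexes were used but not labelled, so each gene was also fitted against a sex-linked score. The score was the level of Xist less the average level of Ddx3y, Eif2s3y, Kdm5d and Uty, all in log2 CPM, rescaled from 0 in the lowest to 1 in the highest library, and used as a number without assigning a sex. In each diet 6 libraries had a score of 0.140 or less and 6 had 0.914 or more. In a fit of diet and score, 4 of the 45 genes were called for the score, against 2.93% of all tested genes. Mbl2 rose along the score by 1.53 (SE 0.32, edgeR FDR 0.00258). C8a, C8b and C9 fell along it, with slopes of -1.72 (SE 0.29, edgeR FDR 0.000265), -1.33 (SE 0.25, edgeR FDR 0.000988) and -0.97 (SE 0.22, edgeR FDR 0.0048). The terminal genes Hc and C8g were not called, with slopes of -0.33 and -0.39.

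**Figure D5:**
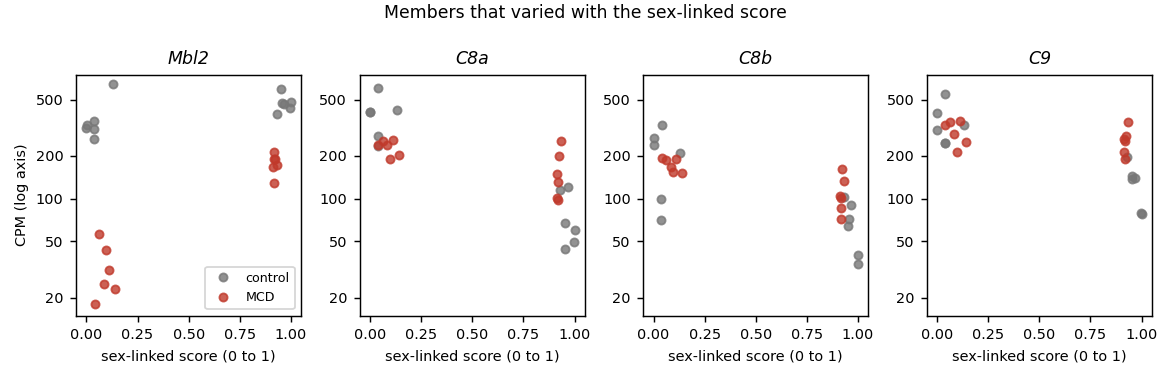
Level of Mbl2, C8a, C8b and C9 (y axis, CPM on a log axis) against the sex-linked score (x axis, 0 to 1) in the 12 control (grey) and 12 MCD (red) libraries. The red Mbl2 points split into 18.1 to 56.3 CPM at low scores and 130 to 212 CPM at high scores, and the grey C8a points lie at 234 to 600 CPM at low scores and 44.5 to 120 CPM at high scores. The slopes of C8a, C8b and C9 were not called different between diets.

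For Mbl2 the slope itself differed between diets. In control livers Mbl2 was at 264 to 641 CPM at low and 393 to 593 CPM at high scores, which overlapped. In MCD livers it was at 18.1 to 56.3 CPM at low and 130 to 212 CPM at high scores, which did not overlap. The fitted slope was 0.43 (SE 0.24) in control and 2.89 (SE 0.28) in MCD livers, a difference of 2.45 (SE 0.37, edgeR FDR 0.000708). Among all tested genes 0.411% had slopes called different between diets, and Mbl2 was the 1 gene of the 45 that did. The fitted diet effect on Mbl2 was -3.69 (SE 0.27) at the low end and -1.23 (SE 0.24) at the high end of the score, a fall at both.

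For C8a, C8b and C9 a difference in slope between the diets was not called. C8a was at 234 to 600.1 CPM at low and 44.5 to 120 CPM at high scores in control livers, and at 191 to 259 CPM and 97.8 to 255 CPM in MCD livers. Its slope was -2.57 in control and -0.68 in MCD livers, a difference of 1.89 (SE 0.42, edgeR FDR 0.0204). C9 was at 245 to 544 CPM at low and 77.6 to 198 CPM at high scores in control livers, and at 212 to 350.1 CPM and 190 to 347 CPM in MCD livers. Its slopes were -1.57 and -0.25, a difference of 1.32 (SE 0.34, edgeR FDR 0.0503). The slopes of C8b were -1.76 and -0.80, a difference of 0.96 (SE 0.46, edgeR FDR 0.364). In control livers alone the slopes of C8a, C8b and C9 all passed the FDR limit, and in MCD livers alone none did. The edgeR FDRs were 8.49e-07 in control and 0.533 in MCD livers for C8a, 4.79e-05 and 0.971 for C9, and 0.000548 and 0.464 for C8b. The fitted diet effect at the low end was -0.82 for C8a (SE 0.28, edgeR FDR 0.0156) and -0.27 for C9 (SE 0.23, edgeR FDR 0.32), neither at or under the FDR limit of 0.01. At the high end it was 1.08 for C8a (SE 0.28, edgeR FDR 0.00246) and 1.05 for C9 (SE 0.23, edgeR FDR 0.000529). For C8b it was -0.23 (SE 0.31, edgeR FDR 0.55) at the low end and 0.72 (SE 0.31, edgeR FDR 0.0554) at the high end, neither past the limit. The windows of C8a (chr4:104876349-104876648, minus strand) and C9 (chr15:6445096-6445395, plus strand) are shown because both genes were called in the fit of diet and score. Capitals match TTCNNNGAA in C8a and TTNNGCAAT on the reverse strand in C9.
C8a: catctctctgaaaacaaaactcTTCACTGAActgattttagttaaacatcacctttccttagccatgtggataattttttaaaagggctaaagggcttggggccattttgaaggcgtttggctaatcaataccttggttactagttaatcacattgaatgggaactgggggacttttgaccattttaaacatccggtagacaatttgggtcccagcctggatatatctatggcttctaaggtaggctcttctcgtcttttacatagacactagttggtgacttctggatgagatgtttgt
C9: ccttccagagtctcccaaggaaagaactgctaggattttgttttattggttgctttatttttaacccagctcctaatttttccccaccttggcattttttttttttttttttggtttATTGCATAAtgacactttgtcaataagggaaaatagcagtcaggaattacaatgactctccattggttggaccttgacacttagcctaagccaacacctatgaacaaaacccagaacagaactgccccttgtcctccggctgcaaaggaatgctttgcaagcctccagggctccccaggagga

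Beyond the 46, 54 other genes of the pathways were counted by the same test. Of 48 that could be tested 13 were called higher and 17 lower, beside 19.2% and 19.1% of all tested genes. With total counts alone 14 were higher and 8 lower, beside 32.2% and 6.01% of all tested genes. Of the 48, 10 passed the filter on low counts only through the MCD libraries and 1 only through the control libraries, and among the 37 that passed on both diets 5 were called higher and 16 lower. The largest fitted log2 fold changes were those of Itgax at 3.82 (SE 0.28) and Itgam at 3.33 (SE 0.24), the alpha chains of complement receptors 4 and 3 on myeloid cells, and of Plaur at 3.35 (SE 0.22), the urokinase receptor. Every MCD liver was above every control liver in each of these, and each passed the filter only through the MCD libraries. The largest falls were those of Colec10 at -3.17 (SE 0.31), a collectin that can start the lectin route and that passed only through the control libraries, Fcna at -1.62 (SE 0.20), a ficolin of the same route, and F8 at -1.40 (SE 0.15), the cofactor of factor IX. All of these falls overlapped between diets. Vsig4, named after its values were seen and also a Kupffer cell marker here, was called lower at -0.68 (edgeR FDR 0.00413). Macrophage genes of these pathways thus did not all rise.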

How the data were processed

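Libraries were made from poly(A) RNA of 24 mouse livers. The authors deposited raw counts per Ensembl gene, 1 column per library, without normalization or a low-count filter (28652 of 56205 rows are 0 throughout). The submitters' processing notes name bcl2fastq, STAR 2.7.3a and mm10. The study's methods name a stranded mRNA kit, and an exon quantification pipeline with the same STAR version and PISCES for a human reference. Whether these hold for the mouse libraries, and so the counting program and strand use, is not given in the sources used here. GENCODE mouse release 21 named 51745 rows, and 0 columns were left unused.

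The genes, classes, lists and tests were chosen with earlier results of these data known. Counts were fitted over all 24 libraries in R 4.3.3 with edgeR 4.0.16 (filterByExpr by diet, TMM, glmQLFit, glmQLFTest), without a covariate, and tested on simulated data. SE is the absolute log2 fold change over the square root of F. RPKM uses the longest transcript. Ratios add 0.5 to each count. Each library is 1 mouse, and the depth of 16388650 to 24915175 counts limits F13a1, C5ar1 and Cfd most.

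Values per library are given for all macrophage-made and other-source genes and, in each role, for the hepatocyte-made gene with the largest change and that with the highest CPM. Of the other pathway genes the 3 largest rises and falls past the threshold are named, and for the score every gene past it.

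Of 53 cell type markers 52 matched a symbol. The alternatives were relative log expression and upper-quartile factors, total counts alone, no filter, at least 10 counts in every library, DESeq2 1.42.0, limma-voom (limma 3.58.1), a replicate block, the score as covariate, a log2 limit of 1, an FDR of 0.05 with no fold limit, a ratio offset of 5, and each library left out. Promoter windows are those of RefSeq (GRCm38.p6). Permutation tests used numpy 2.4.6 in Python 3.11.15.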

Additional observations from a re-analysis of the deposited data

Results flagged for a closer look

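The slope of Mbl2 on the sex-linked score was 2.45 larger in MCD than in control livers by a test of the difference itself (diet by score interaction, SE 0.37, edgeR FDR 0.000708, against 0.411% of tested genes called). The slope was 2.89 in the 12 MCD and 0.43 in the 12 control livers. Leaving out control replicate 2 or control replicate 11 raised the number of the 45 genes with slopes called different from 1 to 2, and no other library did. No library is labelled with a sex, so the score cannot be told apart from other differences that the 6 low and 6 high libraries of a diet may share.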

How the results depend on the processing

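Genes called lower, all of them hepatocyte-made, numbered 20, against 9 with upper-quartile factors, 3 with total counts alone, 13 with at least 10 counts in every library and 1 with a log2 limit of 1. The other settings gave 16 to 25. Leaving out each library gave 15 to 20, with 15 without control replicate 1 and 16 without control replicate 12 or MCD replicate 2. F9 lost its call in 17 of those fits, F13b in 7 and F12 in 4. Genes called higher numbered 7 in each of them. With total counts alone 1 hepatocyte-made gene (Pros1) and 3 other-source genes were called higher, at FDR 0.05 without a fold limit 1 and 2, and with a log2 limit of 1 the other-source count was 0. At least 10 counts in every library removed C5ar1 and F13a1 and left 4 macrophage-made genes higher. Other pathway genes called lower fell from 17 to 8 with total counts alone and to 5 with a log2 limit of 1, and those called higher from 13 to 5 with at least 10 counts. Genes with slopes called different numbered 2 at FDR 0.05 without a fold limit and 1 to 2 with a library left out. Genes called for the score numbered 3 to 6 over the scalings, filters, thresholds and left-out libraries, the settings in which that fit was run. The 7 ratios stayed at 7 or 8.

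Log2 fold changes of the opposite sign came only from genes that were not called. With relative log expression factors C2 was 0.013, Mbl1 0.0012 and C3 0.045. With upper-quartile factors C1ra was 0.0082, C2 0.11, Mbl1 0.099, C3 0.14 and Cfb 0.060. With total counts alone C1ra was 0.23, C2 0.33, Mbl1 0.35, C3 0.34, Cfb 0.28, Cfp 0.077, C8a 0.15, Cfi 0.056, Serping1 0.11 and Proc 0.021. Without a filter C3 was 0.026. With at least 10 counts C2 was 0.037, Mbl1 0.026 and C3 0.070. With DESeq2 C2 was 0.013, Mbl1 0.0012 and C3 0.045. With limma-voom Mbl1 was 0.016, C3 0.039 and C8a 0.16. With the score as covariate C3 was 0.026 and C8a 0.15. With a library left out C2 ran from -0.079 to 0.049, C3 from -0.063 to 0.074, C8b from -0.024 to 0.33 and Mbl1 from -0.11 to 0.10. Added after seeing the data, the C1qa ratio with Csf1r replaced was -1.18 for Cd68, -2.23 for Lyz2, -0.94 for Tyrobp and -0.70 for Fcer1g. The C3ar1/C5ar1 ratio was 0.13 with an offset of 5, and Fga/Fgg ran from -0.047 to 0.0028 with a library left out. The cause was not tested.

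The diets share replicate numbers, and no label says that a number marks a shared litter, batch or day. Deviations of same-numbered pairs had a median r of 0.233, against -0.059 for other pairs. However, 10 of the 12 same-numbered pairs lay at the same end of the sex-linked score, and other pairs at the same end had a median r of 0.226. Pairing was accepted only with r above 0.1 in every pair, which held in 8 of 12 (r from -0.28 to 0.35), and 2 control libraries correlated best with their own number. With the replicate block 18 genes were called lower and 7 higher, and Mbl1 was 0.018, C3 0.040 and C8a 0.16. Low counts limit F13a1 and C5ar1 in control livers.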

Other observations

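Of the 48 other pathway genes tested, C6 and F2r were called for the score in the fit of diet and score, beside 2.93% of all tested genes. They were named after their values were seen. C6, the terminal component that joins C5b, fell along the score (slope -2.54, SE 0.25), from 90.9 to 231 CPM at low scores to 13.9 to 36.0 CPM at high scores in control livers, without overlap. In MCD livers C6 went from 98.4 to 172 CPM at low to 30.005 to 78.3 CPM at high scores, also without overlap. Its slopes of -3.26 and -1.67 differed by 1.60 (SE 0.36, edgeR FDR 0.0244), which was not called. F2r, the thrombin receptor PAR1, fell along it as well (slope -1.06, SE 0.17).

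Leaving out control replicate 12, which had the lowest TMM factor (0.642), the coefficient of variation was larger among control livers in 28 of the 35 hepatocyte-made genes, with medians of 18.5% and 13.4%, and in 80.7% of all tested genes.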
